A study of Mus musculus with 4 samples.

Results

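The genes examined were 5 ligands (Bmp2, Bmp4, Bmp6, Bmp7 and Gdf5), 4 secreted antagonists (Grem1, Nog, Chrd and Fst) and Bambi, a membrane pseudoreceptor that lacks the kinase domain and dampens BMP and TGF-β signalling. They were found by their symbols in a table of 24532 genes, in which all 10 were listed. The group was selected on measured values, namely the FPKM of these same sham and injured libraries, since Grem1 moved in opposite directions at the 2 ages. That contrast is therefore described here and not put forward as a test. Of the 10 genes, 9 were at 1 FPKM or more in all 4 libraries, and Fst was below 1 FPKM in all of them.

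Bone morphogenetic proteins (BMPs) are secreted ligands of the TGF-β superfamily. They bind heteromeric complexes of type I and type II serine/threonine kinase receptors, which phosphorylate Smad1, Smad5 and Smad9, and these enter the nucleus with Smad4 to switch on target genes such as the Id family. Extracellular antagonists, among them gremlin, noggin, chordin and follistatin, bind the ligands and keep them from their receptors. In cartilage the pathway is known for driving chondrocyte differentiation, for the formation of joints, where Gdf5 marks the cells of the joint interzone, and for the hypertrophy of chondrocytes before bone forms.

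RNA sequencing was done on knee cartilage of wild type C57BL/6 mice, male by the study's methods, in 4 groups, a sham and an injured group at each of 2 ages. Young mice were 3 weeks old. Adult mice were 10 weeks old by the study's methods, whereas their labels give 12 weeks in the title and 14 weeks among the characteristics. Injured joints were taken at day 3, the methods describing full-thickness cartilage injury (FTCI) with a needle and the titles naming DMM surgery. The adult sham label gives a span of day 3 to day 14. Cartilage of 5 control or 10 injured mice was pooled into 1 library per group, so no difference below has a replicate check, and a pool gives no spread between animals.

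Expression was deposited as FPKM, a fragment count divided by gene length and by library size, which allows levels to be compared between genes. Changes are given as log2 ratios of FPKM + 1, which shrink the ratio of genes with low values, and a gene was counted as changed from 2-fold upward, a rule of size and not of significance. All 10 genes of the chondrocyte list, among them Col2a1, Acan and Sox9, were at 1 FPKM or more in each library, with a summed level between 10318 and 17875 FPKM. Markers of macrophages, fibroblasts, bone, endothelium and muscle were present as well, and in such bulk tissue fewer cells of a type and less RNA per cell cannot be told apart. The adult sham library stood apart from the others, since the nuclear RNA Neat1 was at 0.828 FPKM there and between 234.1 and 518.1 FPKM elsewhere. The median log2 ratio of the 10891 genes that reached 1 FPKM everywhere was −0.04 after injury in the young, 0.23 after injury in the adult, and −0.30 when adult sham was set against young sham.

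In young cartilage Bmp4, Bmp6 and Gdf5 fell by 2-fold or more after injury while Grem1 rose. With a pseudocount of 5 in place of 1 FPKM these stayed short of 2-fold in the same directions, at log2 ratios of −0.92, −0.99, −0.88 and 0.80. In adult cartilage Bmp6, Bambi and Grem1 were lower after injury, and the remaining ligands did not pass 2-fold in either direction. The sham libraries differed most in Grem1, which was 10.3 times as high in the adult, and in Gdf5, which was 4.45 times as high in the young.

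**Figure D1:**
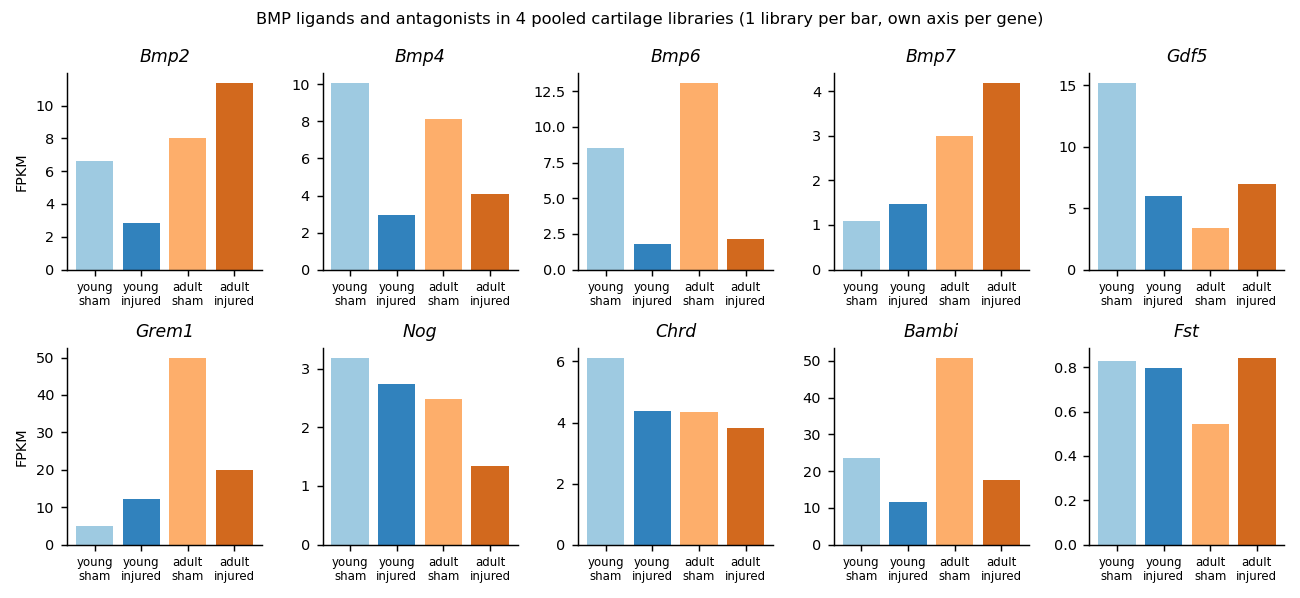
FPKM (vertical axis, a separate scale from 0 for each gene) of the 10 genes in sham and injured cartilage of young and then adult mice, each bar being 1 pooled library. Bmp4, Bmp6 and Bambi stand lower in the injured than in the sham library at both ages, and Grem1 reaches 50.0 FPKM in adult sham against 4.86 FPKM in young sham cartilage.

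After injury in young cartilage, 3 of the 10 genes were at least 2-fold lower (Bmp4, Bmp6 and Gdf5) and 1 was at least 2-fold higher (Grem1), where 1.27% of all 18181 genes above 0 were lower and 4.57% higher by as much (5.83% in either direction). In adult cartilage 3 genes were at least 2-fold lower (Bmp6, Grem1 and Bambi) and 0 higher, against 1.46% and 6.9% of all genes (8.37% in either direction). Bmp6 was the member lower by 2-fold or more at both ages, as 0.347% of all genes were. Bambi also passed 2-fold at both ages with a pseudocount of 0.1 FPKM (−1.03 and −1.53), with every library's FPKM brought to 1 common sum (TPM, −1.12 and −1.42) and after quantile normalization (−1.01 and −1.74), and Bmp4 after median-of-ratios scaling (−1.45 and −1.10) and quantile normalization (−1.57 and −1.14). The median log2 ratio of the 10 genes was −0.69 for the young and −0.36 for the adult, and that of all genes above 0 was 0.00 and 0.14. Since the genes were chosen with these ratios in view, the counts describe them and do not set them apart from other genes.

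Of the ligands, Bmp6, a BMP also known from iron metabolism and from hypertrophic chondrocytes, had the lowest ratios. It was at 8.49 FPKM (sham) and 1.79 FPKM (injured) in the young, and 13.1 FPKM (sham) and 2.12 FPKM (injured) in the adult. Both injured libraries lay below both sham libraries, with log2 ratios of −1.76 for the young and −2.17 for the adult. The gene lies on chromosome 13 (38345716 to 38500314; GRCm38.p6, which mm10 represents) and overlaps Txndc5 on the opposite strand. The annotated spans of Bmp4, Gdf5, Chrd and Fst also overlap those of genes on the other strand. These are whole gene spans, introns included, and overlap of exons was not examined. Whether the counting used strand is not given in the sources used here. Without it, reads from any exon bases shared with such partners could not be told apart.

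Bmp4, which acts early in skeletal patterning and chondrogenesis (chromosome 14, 46383525 to 46390669), was at 10.1 FPKM (sham) and 2.95 FPKM (injured) in the young, and 8.16 FPKM (sham) and 4.06 FPKM (injured) in the adult. Here too both injured libraries were below both shams. Its log2 ratio was −1.49 for the young and −0.86 for the adult, and in adult mice the value passed 2-fold after median-of-ratios scaling (−1.10), which applies a single factor per library, the median ratio to a common reference.

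Bmp2, an osteogenic and chondrogenic BMP (chromosome 2, 133552159 to 133562896), had log2 ratios of opposite sign at the 2 ages. The values were 6.59 FPKM (sham) and 2.82 FPKM (injured) in the young, and 8.0 FPKM (sham) and 11.4 FPKM (injured) in the adult. Young injured cartilage was thus the lowest of the libraries and adult injured the highest. The log2 ratio of −0.99 in young mice stayed just short of 2-fold because of the added 1 FPKM, while the plain FPKM were 2.34 times as high in young sham as in young injured cartilage. In adult mice it was 0.46, and between 0.17 and 0.58 over all alternative settings.

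Gdf5, a growth factor of joint formation and of articular cartilage (chromosome 2, 155941023 to 155945367), was at 15.2 FPKM (sham) and 6.00 FPKM (injured) in the young, and 3.41 FPKM (sham) and 6.98 FPKM (injured) in the adult. The injured libraries were close to each other, and the shams lay on either side of them. Its log2 ratio was −1.21 for the young and 0.86 for the adult, the latter ranging from 0.50 after quantile normalization to 1.03 on the TPM scale.

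Bmp7, known from kidney and eye development and as an anabolic factor for chondrocytes (chromosome 2, 172868012 to 172940321), was the lowest of the 5 ligands in 3 of the 4 libraries, all but adult injured cartilage. Its level was 1.08 FPKM (sham) and 1.47 FPKM (injured) in the young, and 3.00 FPKM (sham) and 4.19 FPKM (injured) in the adult. Its log2 ratios after injury were 0.25 and 0.37. Both adult libraries were above both young libraries.

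Among the antagonists Grem1, which encodes gremlin 1, a DAN family protein that binds mainly BMP2, BMP4 and BMP7 (chromosome 2, 113748675 to 113758648), carried the contrast it was chosen for. It was at 4.86 FPKM (sham) and 12.2 FPKM (injured) in the young, and 50.0 FPKM (sham) and 19.9 FPKM (injured) in the adult. Injury thus went with more Grem1 at the young age and less at the adult age, and the injured libraries lay between the shams. The log2 ratios were 1.17 for the young and −1.29 for the adult, and in plain FPKM the change was 2.52-fold up and 2.51-fold down. Such a pair of opposite 2-fold changes was found in 19 of 18181 genes, or 0.105%, of which 8, or 0.044% of all genes, shared its order of higher in the young and lower in the adult. Opposite signs with a difference of 1 or more on the log2 scale were found in 4.3% of all genes. The opposite signs of Grem1 held under every pseudocount and scaling tried, with ratios of 0.80 to 1.31 in young and −1.56 to −1.14 in adult mice.

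Noggin, chordin and follistatin varied less. Nog, a high-affinity antagonist that is needed for normal joint formation (chromosome 11, 89300638 to 89302559), was at 3.19 FPKM (sham) and 2.74 FPKM (injured) in the young, and 2.48 FPKM (sham) and 1.34 FPKM (injured) in the adult, with log2 ratios after injury of −0.17 and −0.58. Chrd, which encodes chordin a target of tolloid proteases (chromosome 16, 20731425 to 20742384), had 6.13 and 4.38 FPKM in the young and 4.35 and 3.81 FPKM in the adult (sham before injured), with ratios of −0.40 and −0.15. Fst, which encodes follistatin, an inhibitor of activins as well as of some BMPs (chromosome 13, 114452262 to 114458989), was between 0.544 and 0.844 FPKM. At the depth estimated below Fst rested on about 47 to 61 fragments per library, and Nog on 58 to 142.

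Bambi, which is itself a target of BMP and TGF-β signalling, had the highest level of the 10 genes in both shams, and was second to Grem1 in both injured libraries. It was at 23.6 FPKM (sham) and 11.5 FPKM (injured) in the young, and 50.9 FPKM (sham) and 17.5 FPKM (injured) in the adult. Both injured libraries were below both shams. The log2 ratio was −0.98 in young mice, just short of 2-fold, and −1.49 in adult mice.

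**Figure D2:**
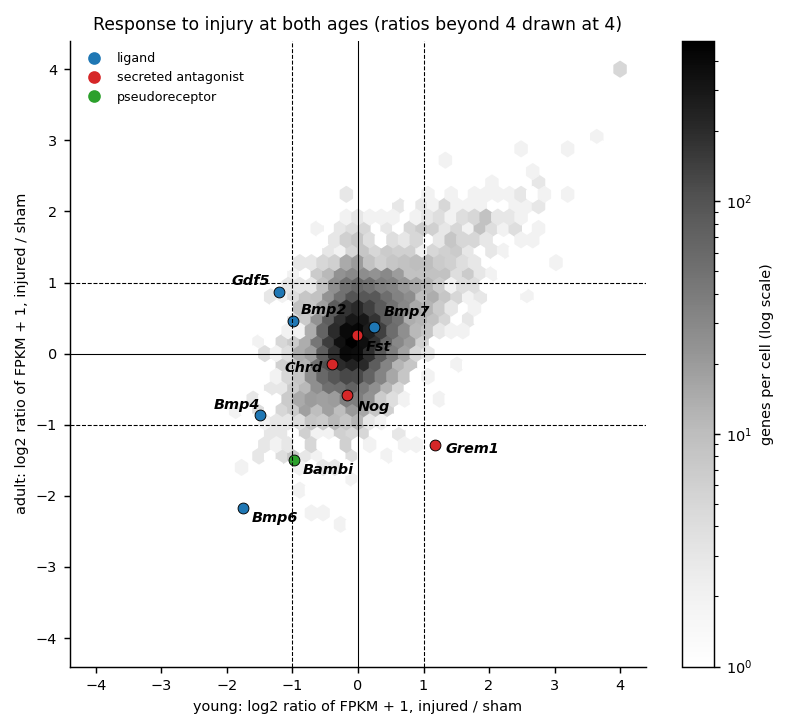
Log2 ratio of FPKM + 1, injured against sham, in young (horizontal) and adult (vertical) cartilage, with blue ligands, red secreted antagonists and green Bambi over a grey density of the 10891 genes that reached 1 FPKM in each of the 4 libraries; ratios beyond 4 are drawn at 4. Dashed lines mark 2-fold; Grem1 lies alone at the lower right (1.17 and −1.29), opposite to Gdf5 (−1.21 and 0.86) and Bmp2 (−0.99 and 0.46), while Bmp4, Bmp6 and Bambi lie at the lower left.

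Sequences just upstream of the transcription start are shown for Grem1, whose direction differed between the ages, and for Bmp4 and Bmp6, which were lower in both injured libraries. They are the 250 bases before the RefSeq start on GRCm38.p6, the only members besides Chrd with a matching entry in the promoter table used. Capitals mark any occurrence of GGCGCC, a GC-rich motif bound by Smads, of CACGTG, an E-box, or of TGACTCA, an AP-1 motif, searched on both strands and chosen after the sequences were seen.
Grem1, minus strand, chr2:113758649-113758898: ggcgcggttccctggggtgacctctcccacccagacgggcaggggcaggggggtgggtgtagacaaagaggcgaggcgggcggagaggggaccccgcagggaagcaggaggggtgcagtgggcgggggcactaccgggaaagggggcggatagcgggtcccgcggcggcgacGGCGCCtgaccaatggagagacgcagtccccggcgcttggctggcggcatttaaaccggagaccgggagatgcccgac
Bmp4, minus strand, chr14:46390670-46390919: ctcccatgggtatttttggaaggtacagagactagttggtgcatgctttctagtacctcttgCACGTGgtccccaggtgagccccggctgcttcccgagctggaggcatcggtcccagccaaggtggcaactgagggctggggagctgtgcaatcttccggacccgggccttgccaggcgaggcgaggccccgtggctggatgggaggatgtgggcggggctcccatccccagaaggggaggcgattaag
Bmp6, plus strand, chr13:38345466-38345715: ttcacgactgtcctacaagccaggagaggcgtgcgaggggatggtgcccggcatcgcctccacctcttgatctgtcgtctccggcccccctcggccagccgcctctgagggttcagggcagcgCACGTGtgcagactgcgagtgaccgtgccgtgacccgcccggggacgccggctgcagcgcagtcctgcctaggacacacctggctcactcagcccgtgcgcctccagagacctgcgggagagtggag

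The Grem1 window held 1 GGCGCC, which begins 78 bases before the start, and neither of the other motifs. Bmp4 and Bmp6 each held 1 CACGTG, beginning 188 and 127 bases before the start, and no GGCGCC. Among 32851 promoter windows of the same length, 9.59% held GGCGCC, 6.02% CACGTG and 4.46% TGACTCA. The windows held 24 CpG in Grem1, 11 in Bmp4 and 22 in Bmp6, where the median of all windows was 6. Fewer CpG than these were found in 88.0%, 64.4% and 85.2% of all windows. These matches describe the letters only.

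Levels of ligands and antagonists were then set against each other within each library, a ratio that a single scaling factor per library cannot move. Summed over Bmp2, Bmp4, Bmp6, Bmp7 and Gdf5, ligand mRNA was at 41.4 FPKM (sham) and 15.0 FPKM (injured) in the young, and 35.7 FPKM (sham) and 28.7 FPKM (injured) in the adult. Summed over Grem1, Nog, Chrd and Fst, antagonist mRNA came to 15.0 and 20.1 FPKM in the young and 57.3 and 25.9 FPKM in the adult. Antagonist mRNA per ligand mRNA was therefore 0.362 in young sham and 1.34 in young injured cartilage, and 1.61 (sham) and 0.901 (injured) in the adult. Within these 9 genes young sham cartilage had the least antagonist for its ligand and adult sham the most. With the other ligands and antagonists of the pathway lists added (15 and 16 genes), the ratio was 2.82 (sham) and 4.40 (injured) in the young and 4.48 and 5.82 in the adult. Young sham was again lowest, but the adult direction turned, with the highest ratio in adult injured cartilage. The added antagonists were far more abundant, Twsg1 (twisted gastrulation, named after its values were seen) alone being at 62.4 to 133.4 FPKM. Without Grem1 the ratio over the members was 0.245 and 0.527 in young and 0.207 and 0.208 in adult cartilage, sham before injured. These sums weigh mRNA levels and say nothing of protein or of binding, and they were chosen after the values had been seen.

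**Figure D3:**
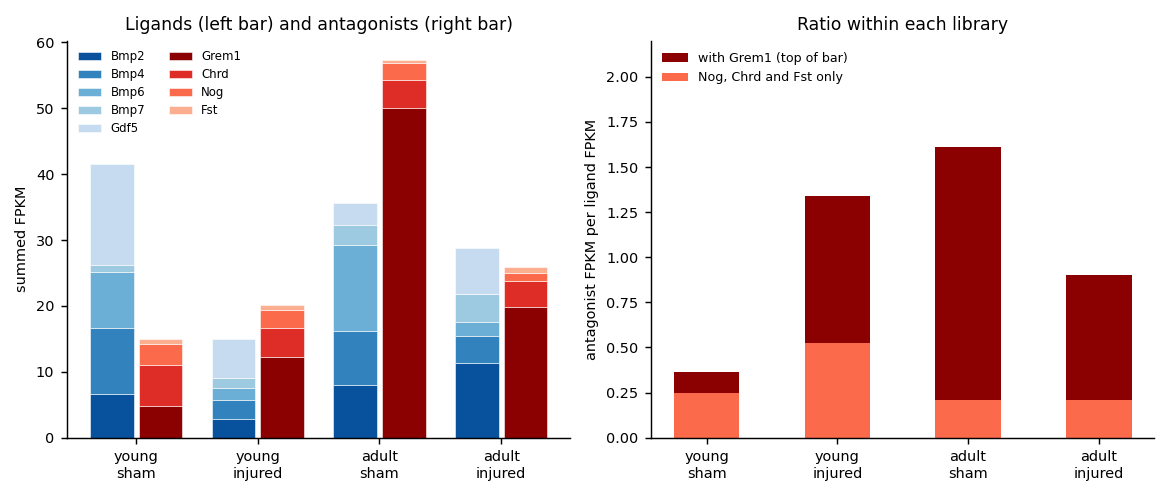
Left, summed FPKM of ligands (blue, left bar) and secreted antagonists (red, right bar) in each of the 4 pooled libraries, divided by gene. Right, antagonist FPKM per ligand FPKM within each library, the whole bar with Grem1 and the light part without it; the whole bar goes from 0.362 to 1.34 with injury in young and from 1.61 to 0.901 in adult cartilage, the latter direction turning (4.48 to 5.82) when the other listed ligands and antagonists are added.

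The make-up of both sides also differed. Grem1 made up 32.4% of the antagonist FPKM in young sham cartilage and 60.7% after injury, and 87.1% and 76.9% in the adult. Among the 5 ligands Gdf5 led in both young libraries, with 36.7% and 39.9% of their summed FPKM. In adult sham cartilage Bmp6 led with 36.7% and Gdf5 made up 9.57%. After injury in the adult Bmp6 stood at 7.39% and Bmp2 led with 39.6%.

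Between the sham libraries, 2 of the 10 genes were at least 2-fold higher in the adult (Grem1 and Bambi) and 1 at least 2-fold lower (Gdf5), where 2.66% of all genes were higher and 10.6% lower (13.3% in either direction). The log2 ratios of adult against young sham cartilage were 3.12 for Grem1, 1.08 for Bambi and −1.88 for Gdf5. Bmp7 had 0.94 and passed 2-fold after TPM rescaling (1.12), median-of-ratios scaling (1.21) and quantile normalization (1.27), and with a pseudocount of 0.1 FPKM (1.39). With a pseudocount of 5 FPKM it had 0.4. The small values of Bmp4 (−0.27) and Nog (−0.27) turned positive under some scalings, up to 0.07 and 0.15, and give no direction. This comparison shares its libraries with both injury comparisons, and the adult values of each rest on the single adult sham library that stood apart in Neat1.

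Direct comparison of the injured libraries does not use the adult sham library. There 2 of the 10 genes were at least 2-fold lower in young than in adult cartilage, Bmp2 and Bmp7, and 0 higher, against 1.8% and 3.09% of all genes (4.89% in either direction). The log2 ratio of young against adult injured cartilage was −1.70 for Bmp2, −1.07 for Bmp7 and −0.66 for Grem1. Bmp4, Bmp6 and Gdf5 differed little between the injured libraries, with −0.36, −0.16 and −0.19. The ratios of all 5 ligands were below 0, as were those of 40.6% of all 18181 genes. Nog had the largest ratio above 0 among the 10 genes, 0.68.

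Markers of cartilage and of other tissues in the dissected samples differed in parallel with some of these genes. Muscle markers, 6 in number, summed to 482.2 FPKM (sham) and 487.7 FPKM (injured) in the young, and 1120 FPKM (sham) and 335.5 FPKM (injured) in the adult, and 4 of the 6 were at least 2-fold lower after injury in the adult, as Grem1 and Bambi were. In the same way 4 of the 6 were at least 2-fold higher in adult than in young sham cartilage, and 0 passed 2-fold after injury in the young. Of all genes 1.46% were lower by as much after injury in the adult and 2.66% higher in adult sham cartilage. After injury in the young 5.83% passed 2-fold. The 6 superficial zone and synovial markers summed to 2112 and 454.3 FPKM in the young and 4278 and 2772 FPKM in the adult, sums carried by Prg4. After injury in the adult 4 of these 6 had ratios above 0, with a median of 0.24. Of all 18181 genes 12223 did, with a median of 0.14. In the adult Thbs4 was at 695.5 FPKM (sham) and 91.8 FPKM (injured). Osteoblast markers summed to 253.1 and 317.2 FPKM in young and to 1427 and 1325 FPKM in adult cartilage, sham before injured. The sum, carried by Bglap, Bglap2 and Alpl, was like Bmp7 higher in both adult than in both young libraries, but Sp7 and Phex were not higher in adult than in young sham cartilage. Macrophage markers, summing to 181.5 and 300.4 FPKM in the shams and to 1773 and 1550 FPKM in the injured libraries, moved opposite to Bmp4, Bmp6 and Bambi at both ages. Fibroblast markers summed to 2569 and 6512 FPKM in the young and 2459 and 8915 FPKM in the adult, sham before injured, and 8 of 8 had ratios above 0 after injury at both ages. Of all 18181 genes 8623 had such ratios in the young and 12223 in the adult. Of the 10 chondrocyte markers 7 were at least 2-fold lower in adult than in young sham cartilage, as Gdf5 was, among them Matn1 (1661 FPKM in the young and 2.65 FPKM in the adult) and Col9a1 (955.4 and 40.9 FPKM), and 1, Comp, was higher, as Grem1 was. Of all genes 10.6% were lower and 2.66% higher by as much between the shams. After injury in the adult 4 of the 10 chondrocyte markers were at least 2-fold higher, where 6.9% of all genes were, and Gdf5 had 0.86. Col10a1, the collagen of hypertrophic chondrocytes, was at 337.9 and 302.2 FPKM in the young and 458.7 and 2446 FPKM in the adult. The other 3 hypertrophic markers differed from it, with log2 ratios after injury in the young and the adult of −0.61 and −1.04 for Ihh, 4.17 and 4.55 for Mmp13, and 0.71 and 0.03 for Ibsp. The part of these cells and tissues in the values of the BMP genes was not tested.

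The 5 genes whose profile over the 4 libraries was nearest to that of Grem1 were sought among the 8049 genes that averaged 5 FPKM or more, by the Euclidean distance of centred log2(FPKM + 1). They were Tmem204 (distance 0.373), Hspa1a (0.542), Prss23 (0.577), Hspa1b (0.578) and Comp (0.620). Tmem204, a membrane protein gene, was at 3.92 FPKM (sham) and 6.97 FPKM (injured) in the young, and 30.9 FPKM (sham) and 12.8 FPKM (injured) in the adult. Comp, which encodes cartilage oligomeric matrix protein, had 1324 and 1984 FPKM in the young and 7203 and 4611 FPKM in the adult. Hspa1a and Hspa1b are near-identical heat shock genes, so their reads cannot be kept apart with certainty. A likeness over 4 libraries is a description and says nothing of shared function or control.

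The rest of the pathway was examined with 52 further genes, of which 49 were above 0 in at least 1 library and 40 reached 1 FPKM. In young cartilage 2 of the 49 were at least 2-fold higher after injury and 5 lower, where 4.57% and 1.27% of all genes were. In adult cartilage 1 was higher and 2 lower, where 6.9% and 1.46% of all genes were. Their median log2 ratio was −0.18 and 0.08, against 0.00 and 0.14 for all genes above 0. Among other ligands Bmp5, a BMP of the developing ear and skeleton, was at 26.8 FPKM (sham) and 15.4 FPKM (injured) in the young, and 37.3 FPKM (sham) and 16.4 FPKM (injured) in the adult. It was thus more abundant than any of the 5 ligands above, and its log2 ratios were −0.76 and −1.14.

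Further antagonists went both ways. Chrdl2, a chordin-like protein of cartilage, was at 7.77 FPKM (sham) and 30.0 FPKM (injured) in the young, and 47.9 FPKM (sham) and 74.7 FPKM (injured) in the adult, with log2 ratios after injury of 1.82 and 0.63. Its young sham value stood lowest, as that of Grem1 did, but its adult injured value stood highest. Chrdl1 had ratios of 1.05 and −0.29. Crim1, a membrane protein that binds BMPs in the producing cell, was at 40.1 FPKM (sham) and 9.70 FPKM (injured) in the young, and 34.7 FPKM (sham) and 18.6 FPKM (injured) in the adult, and its ratio of −1.94 was the lowest of the 52 genes in young mice. Bmper had −1.36 in young and −0.05 in adult mice. Sost, which encodes the Wnt and BMP antagonist sclerostin and is known from osteocytes, was at 0.459 FPKM (sham) and 0.0915 FPKM (injured) in the young, and 26.0 FPKM (sham) and 8.67 FPKM (injured) in the adult.

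With FPKM as deposited and a pseudocount of 1 FPKM, none of the 11 receptor and co-receptor genes passed 2-fold in any of the comparisons. Of all genes 4.89% to 13.3% did, depending on the comparison. The type I receptor gene Bmpr1a was at 35.2 FPKM (sham) and 23.9 FPKM (injured) in the young, and 22.1 FPKM (sham) and 18.5 FPKM (injured) in the adult, and the type II receptor gene Bmpr2 was at 4.66 and 3.23 FPKM in the young and 2.26 and 3.20 FPKM in the adult. Bmpr1b, which binds Gdf5, stayed below 1 FPKM, between 0.0702 and 0.567. Acvrl1 and the co-receptor Eng, both known from endothelium, had ratios of 0.73 and 0.66 in young and 0.67 and 0.47 in adult mice. The 6 endothelial markers summed to 14.9 and 16.8 FPKM in the shams and to 74.6 and 61.6 FPKM in the injured libraries.

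Of the 8 Smad and Smurf genes, 1 passed 2-fold after injury in young mice, Smad5, and 0 in adult mice. Of all genes 5.83% and 8.37% did in either direction, so these counts do not set the list apart. Smad5 was at 17.2 FPKM (sham) and 3.95 FPKM (injured) in the young, and 12.9 FPKM (sham) and 11.7 FPKM (injured) in the adult, with log2 ratios of −1.88 and −0.14. Smad1, which shares its role, was between 3.04 and 4.58 FPKM. The inhibitory Smads, Smad6 and Smad7, were between 1.62 and 3.90 FPKM, with ratios from −0.27 to 0.24.

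Of 13 target genes, 2 were at least 2-fold lower in young injured cartilage (Id4 and Dlx5) and 1 at least 2-fold higher in adult injured cartilage (Runx2), where 1.27% of all genes were lower in the young and 6.9% higher in the adult, and the median log2 ratio was −0.23 and 0.24. Between the injured libraries 12 of the 13 were lower in young than in adult cartilage, 4 of them by 2-fold or more, where 40.6% of all genes were lower and 1.8% by 2-fold or more, with a median of −0.57 against 0.04 for all genes above 0. In that comparison 6 of 6 osteoblast markers (median −1.44), 1 of which, Sp7, is also among the targets, and 4 of 4 hypertrophic markers (median −2.33) were lower as well, and their part in the result was not tested. Id1, the most used readout of BMP signalling, was at 185.0 FPKM (sham) and 201.2 FPKM (injured) in the young, and 348.7 FPKM (sham) and 266.2 FPKM (injured) in the adult, ratios of 0.12 and −0.39. Id3 was at 74.5 and 126.6 FPKM in the young and 150.5 and 296.7 FPKM in the adult, ratios of 0.76 and 0.97, and Id2 had −0.46 and 0.29. Both Id1 and Id3 were lowest in young sham cartilage. Id4 had −1.41 and −0.53. Dlx5 and Runx2, transcription factors of hypertrophic chondrocytes and osteoblasts, had ratios of −1.25 and 0.06 in young and 0.77 and 1.21 in adult mice, that of Runx2 in the adult being 0.84 after quantile normalization.

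**Figure D4:**
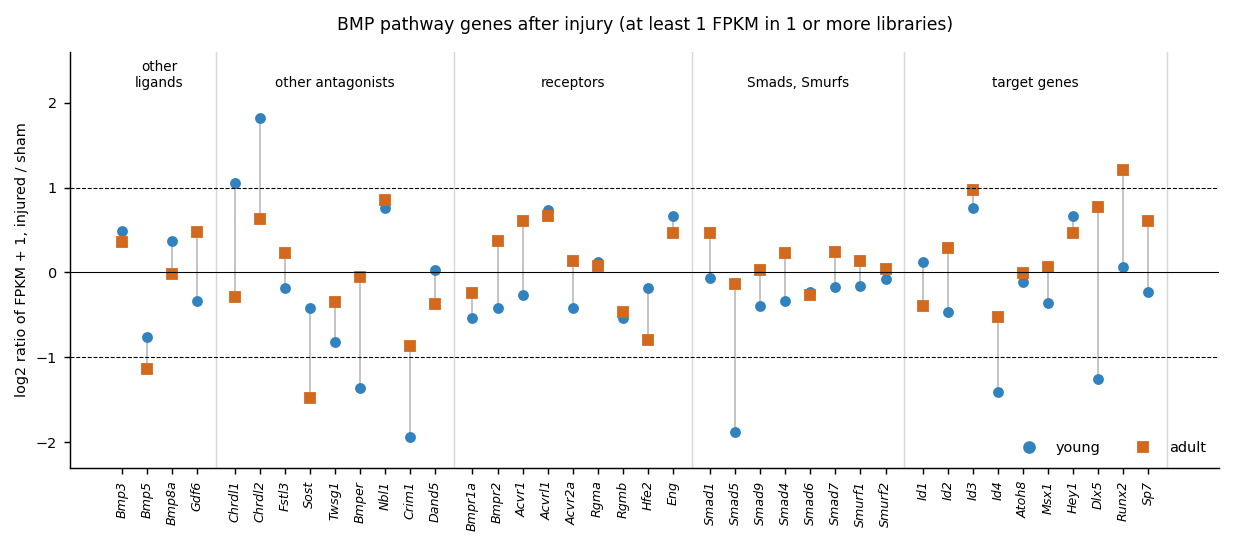
Log2 ratio of FPKM + 1, injured against sham (vertical axis), of the 40 pathway genes with at least 1 FPKM in 1 or more libraries, in young (blue circles) and adult (orange squares) cartilage, 1 library per group. Dashed lines mark 2-fold; the receptor genes lie within them at both ages, while Crim1 (−1.94) and Smad5 (−1.88) reach lowest and Chrdl2 (1.82) highest in young cartilage.

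The depth of the libraries is not given with the FPKM. In genes with 1 annotated transcript, however, low values multiplied by length were near whole multiples of a constant of 32.5 to 38.9 per library, which may stand for 1 fragment. Grem1 would then rest on about 530 fragments (sham) and 1330 (injured) in the young and 6380 and 2120 in the adult, and Bmp6 on about 168 in young injured and 196 in adult injured cartilage. These numbers bear on counting error alone, and the spread between animals and between pools is unknown. Between 0% and 1.61% of the 31-base words of each member's transcripts also occurred in another gene.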

How the data were processed

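RNA was poly-A selected and sequenced with a strand-specific kit. Values were deposited by the authors as FPKM for 24532 genes on mm10. The submitters' processing notes name HISAT2 2.1.0, HISAT, StringTie 1.3.4d, STAR and SAMtools without their roles. Whether counting used the strand is not given in the sources used here.

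The 4 columns were matched to their libraries by name. Log2 ratios of FPKM + 1 were calculated for 18181 genes above 0 in at least 1 library, and 2-fold was the threshold. With 1 library per group no test was made. The member genes, the pathway and marker lists and the alternatives were chosen with earlier results of these data known. Named genes are the 10 members, pathway genes past 2-fold in an injury comparison at 1 FPKM or more, receptor, Smad and Id genes, the 5 genes most like Grem1, and markers. Genes outside this rule are marked as named after their values were seen, as are the motifs and the sums of ligands and antagonists.

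Alternatives were a pseudocount of 0.1 or 5 FPKM, TPM, median-of-ratios scaling over 10891 genes, quantile normalization, 1.5-fold and 3-fold thresholds, and a filter of 1 FPKM. The chondrocyte marker Cnmd is listed under an older symbol and was matched by gene identifier. Coordinates and promoters are from RefSeq (GRCm38.p6) and transcript lengths from GENCODE M21, available for 17546 genes with a single transcript. The scripts were tested on simulated data. Python 3.11.15, numpy 2.4.6, pandas 2.3.3 and matplotlib 3.10.9 were used.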

Additional observations from a re-analysis of the deposited data

Results flagged for a closer look

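Among the 10 members and the 52 further pathway genes, 5 had log2 ratios after injury that were of opposite sign in young and adult cartilage and differed by 1 or more, where 4.3% of all 18181 genes above 0 (782) did. Grem1, among the 5, was selected for this contrast. Genes of the marker lists and those most like Grem1 were not included in this count. None of these differences was tested, since each age has 1 sham and 1 injured library. The young ratio minus the adult ratio was 2.46 for Grem1, −2.07 for Gdf5, −1.45 for Bmp2, 1.34 for Chrdl1 and −2.03 for Dlx5. For Grem1 and Gdf5 the sham libraries differed more than the injured ones, with sham log2 ratios of 3.12 and −1.88 and injured log2 ratios of −0.66 and −0.19. For Bmp2 and Dlx5 it was the injured libraries that differed more, with −1.70 and −2.77 for young against adult injured cartilage and 0.25 and 0.74 for adult against young sham cartilage.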

How the results depend on the processing

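Over the 10 members, the numbers at least 2-fold higher and lower were 1 and 3 after injury in young, 0 and 3 after injury in adult, 2 and 1 in adult against young sham and 0 and 2 in young against adult injured cartilage. Over 49 pathway genes they were 2 and 5, 1 and 2, 6 and 2, and 0 and 8 in the same order. Of all genes 4.57% and 1.27%, 6.9% and 1.46%, 2.66% and 10.6%, and 3.09% and 1.8% were higher and lower by as much. A pseudocount of 0.1 FPKM gave 5 members lower in young and 1 higher in adult mice after injury, and 5 and 8 pathway genes higher and lower in young, 3 higher in adult mice and 5 lower between the shams. A pseudocount of 5 FPKM gave 0 members higher or lower in young mice, 1 higher between the shams and 1 lower between the injured libraries, and 1 and 3 pathway genes in young mice, 0 and 1 in adult mice, 3 and 1 between the shams and 5 lower between the injured libraries. TPM gave 5 members lower in young and 1 higher in adult mice, and 2 pathway genes higher in adult mice. Median-of-ratios scaling gave 0 pathway genes higher in adult mice and 10 and 1 between the shams. Quantile normalization gave 5 members lower in young mice, 0 and 4 pathway genes in adult mice and 10 and 1 between the shams. A 1.5-fold threshold gave 5 members lower in young and 1 higher in adult mice and 1 higher between the injured libraries, and 7 pathway genes higher in young mice, 8 and 4 in adult mice, 12 and 6 between the shams and 3 and 15 between the injured libraries. A 3-fold threshold gave 0 and 1 members in young mice, 1 lower in adult mice, 1 higher between the shams and 1 lower between the injured libraries, and 1 and 2, 0 and 0, 2 and 0, and 3 lower for the pathway genes. Over all genes the share past the threshold in either direction moved as well. In the order of comparisons above it was 5.83%, 8.37%, 13.3% and 4.89% as deposited. It was 14.2%, 19.5%, 26.8% and 12.9% with a pseudocount of 0.1 FPKM, and 2.32%, 3.09%, 4.92% and 1.94% with 5 FPKM. TPM gave 7.72%, 12.8%, 18.2% and 6.84% of all genes. Median-of-ratios scaling gave 5.65%, 7.27%, 10.9% and 4.72%, and quantile normalization 5.57%, 6.68%, 10.3% and 4.79%. At 1.5-fold the share was 14.3%, 21.9%, 31.6% and 15.3%, and at 3-fold 2.29%, 2.89%, 3.78% and 1.56%. With the other listed ligands and antagonists added, chosen after seeing the data, antagonist FPKM per ligand FPKM was 2.82 and 4.40 in young and 4.48 and 5.82 in adult cartilage, sham before injured, so that its adult direction turned. The cause of these changes was not tested.

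No gene past 2-fold among the members and pathway genes changed sign under these settings. The division of all genes between the directions depended on the scaling, with 1255 higher and 266 lower after injury in adult mice as deposited, and 866 and 455 after median-of-ratios scaling. Between the shams it was 484 and 1934, and 972 and 1009 after that scaling, which left Grem1 at a log2 ratio of 3.48. No paired analysis was possible because each group has 1 library, and for the same reason no library could be left out.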

Other observations

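Follistatin also binds activins. Genes of activins and related proteins (Inhba, Inhbb, Inha, Mstn and Gdf11) are given here as a separate list of 5 genes outside the pathway lists, named after their values were seen. Inhba, which encodes the activin A subunit, was at 7.78 FPKM (sham) and 7.77 FPKM (injured) in the young, and 3.74 FPKM (sham) and 15.3 FPKM (injured) in the adult, a log2 ratio of 1.78 in adult mice, while Fst stayed between 0.544 and 0.844 FPKM. Inhbb was at 0.152 FPKM in young sham and 1.3 FPKM in young injured cartilage, and at 0.483 and 2.31 FPKM in adult cartilage, with log2 ratios of 1.0 and 1.16, the former just short of 2-fold before rounding. In adult cartilage 2 of the 5 were at least 2-fold higher after injury, and in young cartilage 0, where 6.9% and 4.57% of all genes were. Myostatin (Mstn) was at or below 0.0423 FPKM in all libraries.

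Nbl1 and Atoh8, named after their values were seen, followed the adult libraries. Nbl1, a DAN family antagonist like gremlin, was at 7.76 FPKM (sham) and 13.8 FPKM (injured) in the young, and 25.1 FPKM (sham) and 46.0 FPKM (injured) in the adult, so that it shared the low young sham value of Grem1 but stood highest in adult injured cartilage. Atoh8, a transcription factor induced by BMPs, was at 4.18 and 3.8 FPKM in young and at 11.7 and 11.6 FPKM in adult cartilage.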
